A study of Mus musculus with 8 samples.

Results

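C-type lectin genes named Clec followed by a digit were described in aortas of young and very old Marfan mice. Members were all symbols of that form in the count tables, apart from 1 excluded by the rule, and a member counted as detected when at least 2 of the 8 libraries reached 1 CPM (reads of a gene scaled to the size of the library). The rule took 32 of the 25526 listed symbols, of which 20 were detected and 12 were not. Of the 32 members, 19 passed edgeR's filter on low counts and were tested among 13978 genes, and all 19 were detected members. All mice were males heterozygous for a mutant allele of fibrillin-1, labelled MFS (Fbn1C1041G/+), a mouse model of Marfan syndrome. RNA came from the aorta of 4 mice at 12 weeks, when the aneurysms grow, and of 4 mice at 2 years, when their growth has stopped. Strain and aortic segment are not given in the labels, no treatment is named, and every mouse carries the allele, so age cannot be set against a control genotype.

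C-type lectins share a compact protein fold that in many members binds sugars in a calcium-dependent way and in others binds proteins or lipids. The receptors of myeloid cells (macrophages, monocytes, dendritic cells and neutrophils) sense fungi, mycobacteria and debris of dying cells, and signal either through the kinase Syk or through inhibitory tail motifs that recruit phosphatases. Other members sit on platelets, endothelium or lymphocytes, or are secreted, and in the artery wall the family is best known from macrophages of atherosclerotic plaques.

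Library totals ranged from 16251986 to 33880690 counts. Sample numbers in the file headers ran from 13 to 16 at 12 weeks and from 24 to 28 at 2 years, so any effect of library order cannot be told apart from age. Smooth muscle markers, the defining transcripts of the aortic media, summed to 30592 to 36454 CPM at 12 weeks and 17605 to 26217 CPM at 2 years. Replicate 3 at 12 weeks stood apart with 825 CPM of heart muscle markers against 13.2 to 31.7 CPM in the other 12-week libraries, and replicate 3 at 2 years with 7619 CPM of fibroblast markers against 3171 to 4042 CPM in the other 2-year libraries. Fold changes can depend on transcript length and GC share. Values are therefore also given with a correction for both (the offset) where it moves them by over 1.5-fold.

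Most detected C-type lectin genes were higher at 2 years. Of the 19 tested, 13 were called higher, 1 lower and 5 neither (edgeR, adjusted p below 0.05), where 25.8% of all genes tested were called higher, 26.2% lower and 52% either way. The offset called the same 14 members, beside 24.9% of all genes higher and 25.6% lower. The median log2 fold change, 2 years over 12 weeks, was 2.06 for the 19 and -0.01 for all genes tested. Among the members, 10 were called at least 4-fold higher, a class that held 4.81% of all genes tested. In all 14 called members the 2-year libraries lay wholly above or wholly below the 12-week ones. Non-overlap of that kind was found upward in 24.3% and downward in 25.3% of all genes tested. Detection leaned wholly on the older mice for 5 members, Clec4b1, Clec4d, Clec4e, Clec2g and Clec1b, which reached 1 CPM in no 12-week library, and these had to be higher at 2 years to count as detected. The other 15 reached 1 CPM in libraries of both ages. Of these, Clec2i did so at 12 weeks in replicate 1 alone, at 1.00 CPM, so it too needed the older mice to count as detected. The count called higher, the 4-fold class and the median all hold members of this kind. To that extent they lean upward by the rule and support nothing. Bulk RNA cannot tell a larger number of cells of a type from more RNA per cell.

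**Figure D1:**
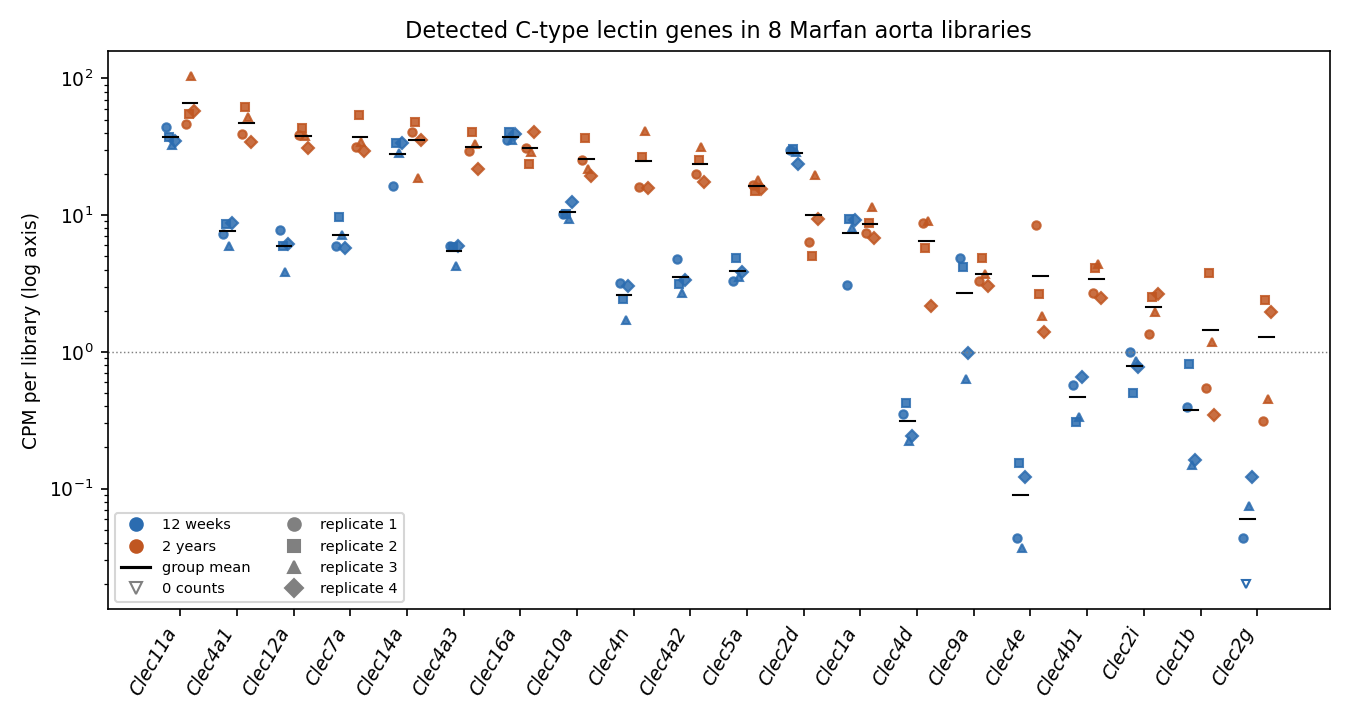
CPM on a log axis for each of the 20 detected C-type lectin genes, ordered by their 2-year mean; points are libraries, symbols mark the replicate number, bars are group means and the dotted line is 1 CPM. The orange 2-year points of Clec4a1, Clec12a, Clec7a, Clec4n, Clec5a, Clec4d and Clec4e stand clear above the blue 12-week points, while Clec2d stands below.

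**Figure D2:**
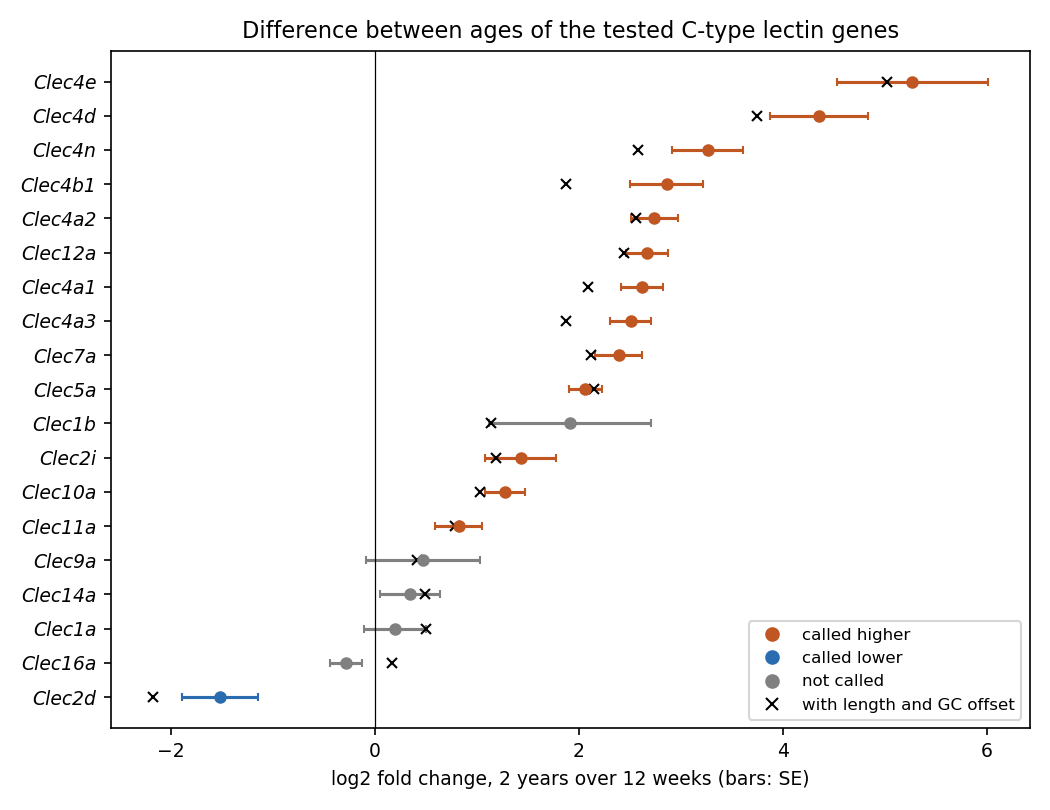
Log2 fold change (2 years over 12 weeks) of the 19 tested members with its standard error, and a cross for the value with the length and GC offset. Values run from -1.52 for Clec2d to 5.27 for Clec4e, and Clec16a changes sign with the offset.

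The members are mostly neighbours in the genome. In the RefSeq annotation 25 of the 32 lie on chromosome 6, where Clec4a1 to Clec4e lie beside one another and Clec2h to Clec7a form another run, with Clec2l, Clec5a and Clec4f apart from both. On this chromosome lie 11 of the 13 members called higher and the 1 called lower. The 250 bases before the RefSeq start (GRCm38.p6, a build older than that of the count tables) were available for 17 of the 20 detected members, but not for Clec4n, Clec10a and Clec1a. The sequences below belong to the pair with the largest rises, Clec4e and Clec4d, to Clec12a and Clec5a, which rose with little spread at 2 years, and to Clec2d, the member that fell. They run 5′ to 3′ on the gene's strand and end at the base before the start. Capitals mark every match, on either strand, to 5 words that were searched: GAGGAA (the core bound by the myeloid factor PU.1), TTGCNNAA (C/EBP factors), TGANTCA (AP-1), an interferon response element word (GAAA, any 2 bases, GAAA) and an NF-kappaB word (GGGA, any 4 bases, CC).
Clec4e, chr6:123289872-123290121, minus strand: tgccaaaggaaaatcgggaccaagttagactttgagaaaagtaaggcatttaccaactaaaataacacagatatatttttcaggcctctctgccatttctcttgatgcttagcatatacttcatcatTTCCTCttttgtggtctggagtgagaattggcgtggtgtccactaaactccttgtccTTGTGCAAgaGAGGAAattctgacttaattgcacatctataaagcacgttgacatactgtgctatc
Clec4d, chr6:123261857-123262106, plus strand: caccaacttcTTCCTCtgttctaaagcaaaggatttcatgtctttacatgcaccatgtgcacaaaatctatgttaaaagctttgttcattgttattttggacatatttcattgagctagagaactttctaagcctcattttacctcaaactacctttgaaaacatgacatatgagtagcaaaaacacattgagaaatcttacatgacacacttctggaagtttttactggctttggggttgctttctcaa
Clec12a, chr6:129349994-129350243, plus strand: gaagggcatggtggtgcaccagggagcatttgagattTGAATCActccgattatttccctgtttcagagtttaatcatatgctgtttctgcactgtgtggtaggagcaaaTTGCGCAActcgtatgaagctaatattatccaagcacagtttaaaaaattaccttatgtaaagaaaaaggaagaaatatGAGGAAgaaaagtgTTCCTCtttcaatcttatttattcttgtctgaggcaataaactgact
Clec5a, chr6:40585806-40586055, minus strand: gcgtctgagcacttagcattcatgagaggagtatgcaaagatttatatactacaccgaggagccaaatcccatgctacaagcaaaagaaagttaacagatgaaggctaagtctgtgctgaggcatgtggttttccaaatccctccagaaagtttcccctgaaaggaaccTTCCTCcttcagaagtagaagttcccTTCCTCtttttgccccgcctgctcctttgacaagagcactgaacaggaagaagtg
Clec2d, chr6:129180365-129180614, plus strand: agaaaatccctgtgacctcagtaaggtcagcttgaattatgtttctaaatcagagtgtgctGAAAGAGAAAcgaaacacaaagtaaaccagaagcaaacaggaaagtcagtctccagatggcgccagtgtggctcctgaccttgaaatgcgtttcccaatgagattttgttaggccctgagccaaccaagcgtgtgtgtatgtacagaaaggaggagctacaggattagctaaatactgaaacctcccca

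The word GAGGAA occurred in 10 of the 17 detected members that had a sequence, in 8 of the 11 called higher and in the uncalled Clec14a and Clec16a, and in 23.1% of 27025 promoters of the same length. Clec4e holds it 56 bases before the start on the gene's strand and 123 bases before it on the other, and Clec12a 61 bases before it on the gene's strand and 47 on the other. Clec5a holds it 81 and 55 bases before the start, each time on the other strand, and Clec4d at 240 bases, also on the other strand. Clec2d lacks it in this window and holds the interferon response element word 189 bases before its start, a word found in 3.04% of all promoters and in 2 of the 17 members. Clec4a2, Clec4a3 and Clec2i, all called higher, also lack GAGGAA and hold none of the searched words. TTGCNNAA was found in 3 of the 11 and in 9.55% of all promoters, TGANTCA in 1 of the 11 and 6.87%, and the NF-kappaB word in 1 of the 11 and 17.3%. In Clec4b1 a GAGGAA match overlaps the interferon response element word. The letters describe these windows only and are no evidence of binding.

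The largest differences were in activating receptors of the Dectin-2 group, which have short tails and signal through the adaptor Fcer1g. The top members, Clec4e and Clec4d, reached 1 CPM in no 12-week library. They had to be higher at 2 years to count as detected, so their place at the top supports nothing. Clec4e (Mincle), a receptor for mycobacterial glycolipid and for a nuclear protein of dead cells, was nearly silent at 12 weeks, with 0.0437, 0.154, 0.0370 and 0.122 CPM in replicates 1 to 4. At 2 years it stood at 8.53, 2.64, 1.82 and 1.39 CPM. The lowest old library was above the highest young one, and old replicate 1 was far above the other 3. The log2 fold change was 5.27 (SE 0.74, edgeR adjusted p = 0.000186), and 4.37 without 2 years replicate 1. Its 12-week level rests on 9 counts over 4 libraries.

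Clec4d (MCL), the partner that forms heteromers with Mincle, had 0.349, 0.424, 0.222 and 0.243 CPM at 12 weeks and 8.79, 5.76, 9.10 and 2.15 CPM at 2 years. The groups did not overlap, and old replicate 4 was lowest, as it was for Clec4e. Means were 0.310 ± 0.0942 CPM in young and 6.45 ± 3.24 CPM in old aortas (SD, n = 4). The log2 fold change was 4.36 (SE 0.48, edgeR adjusted p = 3.69e-05), or 3.75 with the offset. Clec4n (Dectin-2), which binds mannans of fungal walls, was already present at 12 weeks, at 3.19, 2.43, 1.70 and 3.04 CPM, and reached 16.1, 26.6, 41.4 and 15.7 CPM at 2 years. Its rise of 3.26 (SE 0.35, adjusted p = 3.81e-05) became 2.58 with the offset, and old replicate 3 was its highest library. Per kilobase of transcript, Clec4n was the most abundant of these 3 at 2 years, at 20.3 CPM per kilobase against 4.88 for Clec4d and 1.43 for Clec4e.

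The neighbouring Clec4a1, Clec4a2, Clec4a3 and Clec4b1 genes all rose, by 2.51 to 2.86 on the log2 scale. Clec4a2 (DCIR), an inhibitory receptor of myeloid cells whose tail recruits phosphatases, went from 4.804, 3.16, 2.70 and 3.37 CPM at 12 weeks to 20.1, 25.2, 31.3 and 17.4 CPM at 2 years. The log2 fold change was 2.74 (SE 0.23, adjusted p = 5.79e-06). Clec4a1 had 7.29, 8.55, 5.92 and 8.72 CPM in the young libraries and 39.5, 62.0, 52.1 and 34.1 CPM in the old. It was the member with the highest level per kilobase at 2 years, at 30.1 CPM per kilobase, and its log2 fold change was 2.62 (SE 0.21, adjusted p = 3.94e-06). Clec4a3 followed it closely, with 5.90, 5.81, 4.25 and 5.96 CPM at 12 weeks and 29.3, 40.7, 33.1 and 21.7 CPM at 2 years (2.51, SE 0.20, adjusted p = 4.41e-06, or 1.87 with the offset). In both genes old replicate 2 was highest and old replicate 4 lowest.

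Clec4b1 (DCAR), an activating relative, was scarce in young aortas, at 0.568, 0.308, 0.333 and 0.649 CPM. In old aortas it had 2.71, 4.09, 4.36 and 2.47 CPM, a log2 fold change of 2.86 (SE 0.36, adjusted p = 8.4e-05) that was 1.88 with the offset. Clec4a4, which dendritic cells of the spleen are known for, was not detected and had 6 counts at each age over 4 libraries. Sequence is shared within this group: 15.7% of the 50-base words of Clec4a4 and 9.73% of those of Clec4b1 also occur in Clec4a2, and 8.19% of those of Clec4a2 occur in other genes. Counts of these 3 genes are therefore uncertain, by an amount that also depends on the level of the gene they share with. Clec4a1 and Clec4a3 shared no such word with another gene.

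In the Dectin-1 group, Clec7a (Dectin-1), the beta-glucan receptor that carries its own activating tail motif, had 5.94, 9.63, 7.10 and 5.76 CPM at 12 weeks. It had 31.6, 54.1, 34.5 and 29.2 CPM at 2 years, and every old library was far above the highest young one. The log2 fold change was 2.39 (SE 0.23, adjusted p = 1.51e-05). Clec12a (MICL), an inhibitory receptor that recognises uric acid crystals, went from 7.82, 5.97, 3.81 and 6.16 CPM to 38.7, 43.7, 37.8 and 30.9 CPM. Its log2 fold change of 2.67 (SE 0.21, adjusted p = 3.47e-06) lay beside the 2.39 of the activating Clec7a, and a difference between them was not tested. Clec12b, a related inhibitory receptor, was not detected, with 36 counts at 12 weeks and 7 at 2 years.

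Clec9a (DNGR-1), the receptor with which cross-presenting dendritic cells sense actin filaments of dead cells, did not follow the other myeloid members. It had 4.89, 4.20, 0.629 and 0.973 CPM at 12 weeks and 3.31, 4.82, 3.71 and 3.02 CPM at 2 years. Young replicates 1 and 2 were as high as the old libraries and young replicates 3 and 4 far below them, so the groups overlapped (log2 fold change 0.48, SE 0.56, adjusted p = 0.497). Leaving out young replicate 3 gave 0.14, and leaving out young replicate 1 gave 0.93, neither called. Xcr1, the chemokine receptor of the same dendritic cells, had the same pattern in the young libraries, at 3.41, 2.85, 0.592 and 0.933 CPM. At 2 years Xcr1 was at 6.42, 9.85, 5.98 and 7.19 CPM, above every young library, and it was called higher (1.92, SE 0.47, adjusted p = 0.00624). Clec9a shares 4.19% of its 50-base words with Clec1b, and the Clec12b gene model overlaps Clec9a, Clec1b and Clec1a.

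Clec1a (MelLec), a melanin receptor of endothelium and myeloid cells, had 3.10, 9.36, 8.03 and 9.25 CPM at 12 weeks and 7.36, 8.74, 11.4 and 6.84 CPM at 2 years. The groups overlapped, and young replicate 1 alone was low (log2 fold change 0.20, SE 0.31, adjusted p = 0.609). Without that library the value was -0.063. Clec1b (CLEC-2), the podoplanin receptor of platelets, had 0.393, 0.809, 0.148 and 0.162 CPM at 12 weeks and 0.542, 3.75, 1.17 and 0.347 CPM at 2 years. A single old library, replicate 2, carried most of the difference: the log2 fold change was 1.91 (SE 0.80, adjusted p = 0.0649) with it, 0.78 without it, and 1.14 with the offset. The adjusted p ranged from 0.0239 to 0.366 over all alternatives. Old replicate 2 also held the most platelet marker RNA, 105 CPM over 8 genes against 38.1 to 69.4 CPM in the other old libraries and 19.9 to 31.0 CPM in the young ones. The same library held the most red cell marker RNA, 3524 CPM against 796 to 1107 CPM in the other old libraries and 170 to 276 CPM in the young ones. Within the platelet sum, Pf4 gave 31.3, 39.6, 45.9 and 34.1 CPM in old replicates 1 to 4, so the sum depends on this gene. Pf4 was highest in old replicate 3, while Ppbp and Itga2b were highest in old replicate 2, at 25.3 and 22.9 CPM. The part of platelets or blood in the result for Clec1b was not tested.

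2 myeloid members stand outside these groups. Clec5a (MDL-1), which signals through the adaptor Tyrobp and takes part in the response to flaviviruses, was the most even member at 2 years, at 16.6, 15.01, 18.0 and 15.4 CPM against 3.32, 4.85, 3.51 and 3.85 CPM at 12 weeks. Its log2 fold change was 2.06 (SE 0.16, adjusted p = 3.51e-06), and it was 2.15 with the offset. Clec10a (MGL1), a lectin for galactose-type sugars on alternatively activated macrophages and dendritic cells, had 10.3, 10.2, 9.43 and 12.6 CPM at 12 weeks. Per kilobase it lay just below Clec4a1 there, at 4.55 against 4.89 CPM per kilobase. At 2 years it had 25.3, 36.3, 21.9 and 19.3 CPM (1.28, SE 0.20, adjusted p = 0.000329). Its relative Mgl2, with which Clec10a shares 10.6% of its 50-base words, was called higher by 1.21 (SE 0.12, adjusted p = 2.19e-05). Both counts are uncertain to the extent that reads from the shared stretch were assigned to either gene.

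Genes of the Clec2 group encode ligands of NK cell receptors of the Klrb1 family, and here they moved in different directions. Clec2d (Clr-b), which is widely expressed on healthy cells and is bound by the inhibitory receptor Klrb1b, was the member called lower. It had 30.2, 30.6, 29.1 and 23.6 CPM at 12 weeks and 6.31, 4.99, 19.6 and 9.30 CPM at 2 years. The groups did not overlap, but old replicate 3 came close to the young range. Means were 28.4 ± 3.27 CPM in young and 10.1 ± 6.64 CPM in old aortas (SD, n = 4). The log2 fold change was -1.52, with an SE of 0.37 and an adjusted p of 0.00693 in edgeR. Without old replicate 3 it was -2.05, and with the offset -2.18. At 12 weeks Clec2d had the highest level per kilobase of all members, 23.4 CPM per kilobase, and at 2 years it had 8.29.

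Clec2i (Clr-g), another such ligand, went the other way, from 1.00, 0.501, 0.851 and 0.771 CPM to 1.34, 2.52, 1.95 and 2.64 CPM (1.43, SE 0.34, adjusted p = 0.00497). Its call was lost with the offset combined with the replicate block (1.18, adjusted p = 0.0582, and 0.000521 to 0.0582 over all alternatives). Clec2g was detected in old replicates 2 and 4 only, at 2.39 and 1.94 CPM, against 0.314 and 0.455 CPM in old replicates 1 and 3 and at most 0.122 CPM in young libraries. It did not pass the filter on low counts, and with no such filter it was called higher (adjusted p = 0.00144). Clec2e was not detected and had 23 counts at 12 weeks and 1 at 2 years. It was called lower with no filter (adjusted p = 0.00622). Clec2i, Clec2g and Clec2d shared 5.83%, 3.81% and 1.98% of their 50-base words with other genes, mostly with one another. Klrb1b, the receptor of Clec2d, rose from 1.57, 1.19, 0.629 and 1.22 CPM to 5.93, 7.85, 6.50 and 5.66 CPM (2.49, SE 0.28, adjusted p = 4.35e-05).

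3 members are not immune receptors. Clec11a, a secreted growth factor for blood and bone progenitors also called osteolectin, had 43.8, 37.5, 32.3 and 34.8 CPM at 12 weeks and 46.4, 55.2, 103.8 and 58.0 CPM at 2 years. It rose by 0.82 (SE 0.23, adjusted p = 0.0107), or 0.52 without old replicate 3, its highest library and the one with the most fibroblast marker RNA. In the other old libraries the fibroblast sum was 3171 to 4042 CPM, against 5077 to 5802 CPM in the young ones, and Clec11a was above its young values. Col1a1 and Dcn had the highest levels in that sum, with 12-week means of 3032 and 1264 CPM, so the sum depends on these genes. The part of fibroblasts was not tested. Clec14a, an endothelial receptor that binds the matrix protein Mmrn2 and acts in vessel sprouting, had 16.2, 34.0, 28.4 and 33.8 CPM at 12 weeks and 40.2, 47.6, 18.7 and 35.6 CPM at 2 years. The groups overlapped (0.34, SE 0.29, adjusted p = 0.35), and its partner Mmrn2 was not called either (-0.26, SE 0.22, adjusted p = 0.337). Clec16a, an intracellular regulator of autophagy rather than a surface lectin, had 35.3, 40.2, 35.4 and 39.1 CPM at 12 weeks and 31.0, 23.5, 28.9 and 40.3 CPM at 2 years. It was not called (-0.28, SE 0.16, adjusted p = 0.16), was called lower without old replicate 4 (-0.43, adjusted p = 0.0245, with 0.0245 to 0.376 over all alternatives), and stood at 0.17 with the offset.

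The 12 members that were not detected include 4 with 0 counts in every library, namely Clec4f, the galactose receptor of liver Kupffer cells, Clec4b2, Clec2h and Clec2m. Clec4g, a receptor of liver sinusoidal endothelium, had 12 counts at 12 weeks and 31 at 2 years. Clec2l, a brain member, had 19 and 7 counts, Clec2f and the cartilage gene Clec3a had 0 and 3 each, and Clec18a had 1 and 0. Just inside the detection level were Clec1b and Clec2g, each at 1 CPM or more in 2 libraries. The highest values outside it were 0.649 CPM for Clec12b and 0.554 CPM for Clec4g.

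The myeloid members rose beside markers of several blood and immune cell types in the same libraries. The 10 macrophage markers summed to 708 to 968 CPM at 12 weeks and 2251 to 3157 CPM at 2 years, and 9 of the 10 were called higher, while Mertk was not called (-0.40, adjusted p = 0.0854). Their log2 fold changes ran from -0.40 for Mertk to 3.46 for Fcgr1, with a median of 2.19. Clec4e and Clec4d exceeded all 10, and Clec4n, Clec4b1, Clec4a2, Clec12a and Clec4a1 exceeded 9. Clec7a and Clec4a3 exceeded 7, Clec5a 4, and Clec10a and Clec2i 2. Clec4e, Clec4d and Clec4b1 reached 1 CPM in no 12-week library, so they had to be higher at 2 years to count as detected. The median was 4.84 for 5 monocyte markers, and 4.70 for 3 tested neutrophil markers, or 3.49 with the offset. Relative to the macrophage marker sum, on a log2 scale, the difference between ages was 3.59 for Clec4e, 2.61 for Clec4d and 1.57 for Clec4n. It lay between 0.87 and 1.28 for Clec4b1, Clec4a2, Clec12a, Clec4a1 and Clec4a3, and these 8 ratios did not overlap between the ages. The share of all genes whose ratio to this sum does not overlap was not worked out, so the count has no background beside it. The ratios of Clec7a (0.76), Clec5a (0.46) and Clec10a (-0.38) overlapped. Lyz2 made up 28.6% to 41.4% of the sum and Mertk 3.47% to 22.7%, so the ratios depend on these genes. Other lists moved too. Dendritic cell markers summed to 48.5 to 82.8 CPM at 12 weeks and 154 to 214 CPM at 2 years. They did not move as one: of the 9, 7 were called higher and 2 lower, beside 25.8% and 26.2% of all genes tested. The 2 called lower were Zbtb46 (-0.95, adjusted p = 0.000303) and Siglech (-1.19, adjusted p = 0.0143). T and NK cell markers summed to 6.00 to 13.2 and 49.8 to 78.0 CPM, and B and plasma cell markers to 1.58 to 2.44 and 236 to 1220 CPM. The part of each cell type in each rise was not tested.

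**Figure D3:**
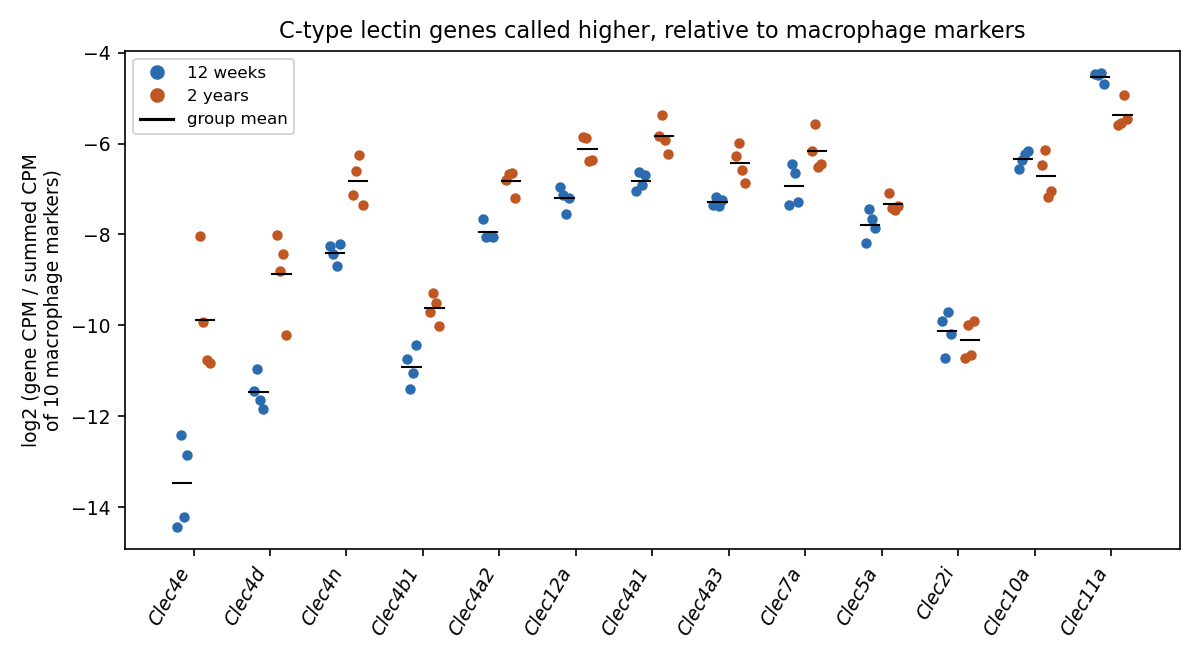
Log2 ratio of each member called higher to the summed CPM of 10 macrophage markers, 1 point for each library, with bars at group means. The ratio is higher at 2 years by 3.59 for Clec4e and 2.61 for Clec4d, and overlaps between ages for Clec7a, Clec5a, Clec2i and Clec10a; that of Clec11a is lower.

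The old libraries were not ordered alike for all members. Of the 13 members called higher, 6 had their highest old value in replicate 3, 5 in replicate 2, 1 in replicate 1 (Clec4e) and 1 in replicate 4 (Clec2i), and 10 had their lowest in replicate 4. The highest old library exceeded the lowest by 1.2-fold for Clec5a and 1.41-fold for Clec12a, but by 4.23-fold for Clec4d and 6.14-fold for Clec4e. Monocyte markers summed to 313, 293, 141 and 215 CPM in old replicates 1 to 4 and to 13.95 to 24.2 CPM in young libraries. Neutrophil markers were at 47.1, 28.2, 26.0 and 8.19 CPM in the old libraries and 2.77 to 3.81 CPM in the young, with Mpo at 0 in all libraries and Ly6g and Camp at 0 at 12 weeks. At 2 years Ly6g had 3 counts over all libraries, Elane 2 and Camp 21. The highest 2-year means in this list were 9.83 CPM for Csf3r, 6.99 for S100a8 and 6.98 for S100a9, so the order of the sum depends on these genes. Clec4e, which both cell types express, followed the order of the neutrophil sum over the 4 old libraries. With 4 libraries this is a description, and the part of neutrophils was not tested. Relative to 10 endothelial markers, which summed to 447, 869, 840 and 924 CPM in young replicates 1 to 4 and 457 to 623 CPM at 2 years, Clec14a kept a steady ratio in the young libraries (-4.78 ± 0.0857 on the log2 scale, SD, n = 4). In the old libraries that ratio was -4.01 ± 0.503, above every young value. The ratio of Clec1a was likewise higher by 0.75, but its lowest old value, -6.51, lay just above its highest young one, -6.54. The endothelial sum itself differed by -0.45 on the log2 scale, with overlap, and neither gene was called on its CPM. The share of all genes whose ratio to this sum does not overlap was not worked out. Pecam1 made up 33.2% to 43.1% of the endothelial sum and Vwf 8.09% to 25.8%. The log2 fold change of Vwf was -0.98, or -0.20 with the offset, neither called, so these ratios depend on the make-up of the sum.

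**Figure D4:**
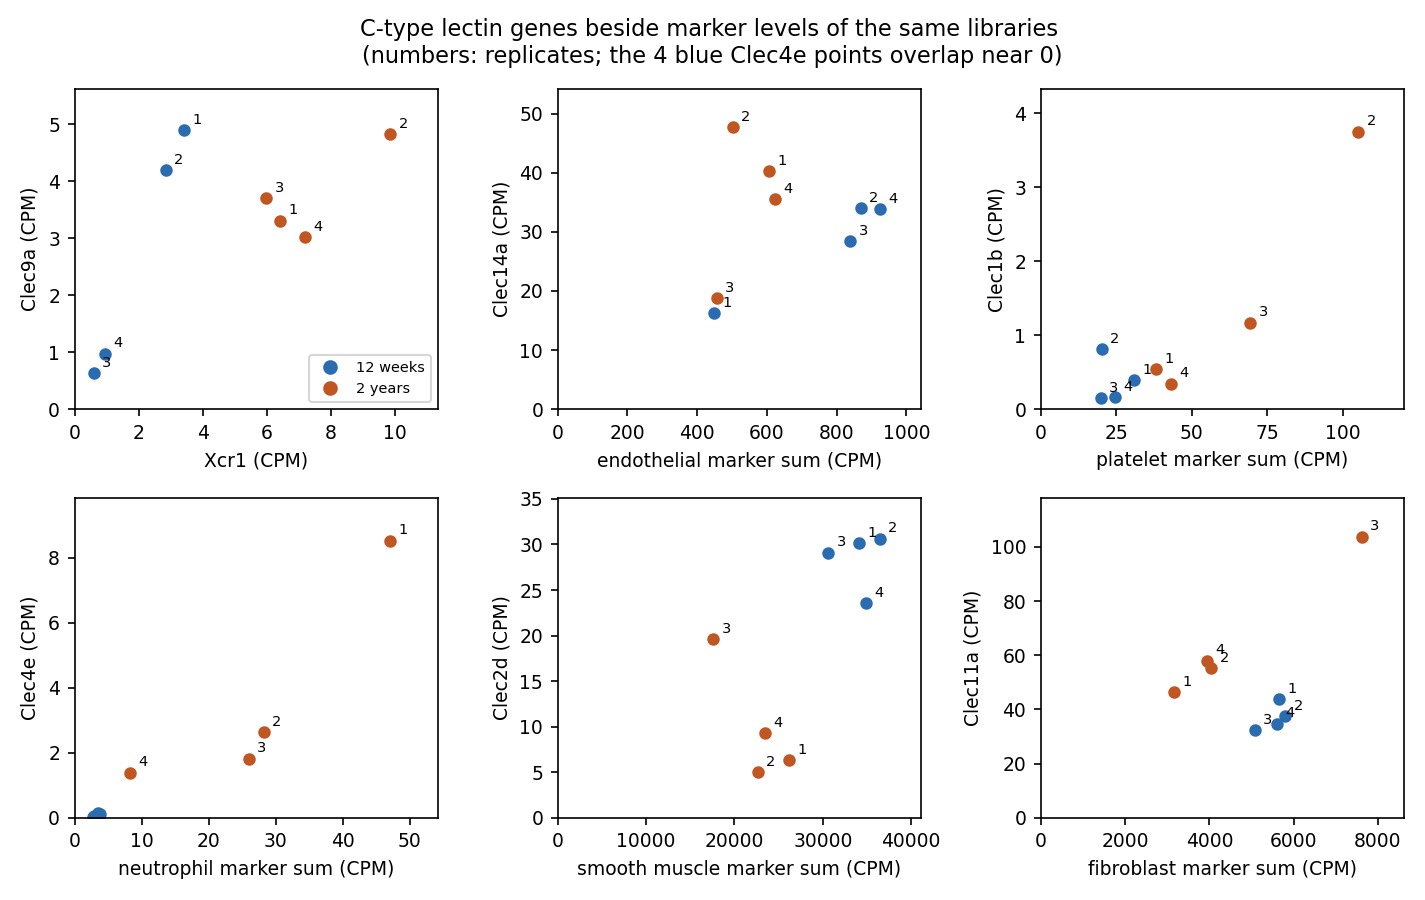
Each panel plots the CPM of a C-type lectin gene against a marker gene or the summed CPM of a marker list in the same library, with replicate numbers beside the points. Old replicate 2 is highest in both Clec1b and the platelet sum, old replicate 1 in both Clec4e and the neutrophil sum, and old replicate 3 in both Clec11a and the fibroblast sum.

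Genes that carry signals from these receptors rose in large part as well. Of 29 signalling genes tested, 1 reached 1 CPM in no 12-week library, and it is among those called higher. In all, 18 were called higher and 4 lower, with a median log2 fold change of 1.23 (edgeR, beside 25.8% and 26.2% of all genes). The adaptors were among them: Fcer1g, that of the Dectin-2 group, went from 17.4 ± 3.74 to 103 ± 23.2 CPM (log2 fold change 2.57, or 1.60 with the offset) and Tyrobp, that of Clec5a, from 13.3 ± 3.84 to 104 ± 28.04 CPM (2.97, or 1.98). The genes with the smallest p were the exchange factor Vav1 (2.54, SE 0.13, adjusted p = 4.33e-07), the kinase Lyn (2.21), the phosphatase Ptpn6 (2.10) and the adaptor Pik3ap1 (2.78). Syk rose less, by 1.23 (SE 0.20, adjusted p = 0.000449). Card9, which links Syk to NF-kappaB, was at 1.496 ± 0.277 and 2.58 ± 1.51 CPM and was not called (0.76, adjusted p = 0.142). Its partner Bcl10 rose by 1.08 while Malt1, the protease of the same complex, fell by 0.60 (adjusted p = 0.0227), a call lost with the offset (-0.35, adjusted p = 0.126). Prkcd and Src were also called lower.

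Of 12 cytokine and inflammasome genes that these receptors are known to induce, 9 were tested, 8 were called higher and 0 lower, with a median of 2.72, beside 25.8% and 26.2% of all genes. Of the 9, 6 (Il1b, Il1rn, Tnf, Il10, Cxcl2 and Ccl3) reached 1 CPM in no 12-week library and passed the filter through the old libraries, so the count and the median describe a list that had to lean upward and support nothing. None of the 9 had a value below 0, and DESeq2 and limma voom also called 0 lower, which for the same reason supports nothing. Il1b went from 0.410 ± 0.0828 to 14.2 ± 5.86 CPM (5.11, SE 0.35, adjusted p = 1.77e-06, or 4.50 with the offset). Its natural antagonist Il1rn rose by 5.51, Nlrp3, the inflammasome sensor, by 1.89 and the regulatory cytokine Il10 by 4.57. Il6 did not pass the filter, with 0.306, 0.0385, 0 and 0.0406 CPM at 12 weeks and 10.6, 4.14, 8.13 and 0.347 CPM at 2 years, groups that did not overlap. Il12b and Il23a, through which Dectin receptors direct T cells, did not pass it either, and Il23a had 1 count in all. Of 8 genes listed as binding partners 5 were tested, 3 were called higher and 1 lower, where 52% of all genes were called either way. Podoplanin (Pdpn), the ligand of Clec1b, rose from 23.3 ± 2.56 to 69.0 ± 31.0 CPM (1.56, SE 0.26, adjusted p = 0.000603) and was highest in old replicate 3 at 114 CPM. Klrb1c, which reached 1 CPM in no 12-week library, rose by 1.90, and the gene with the symbol Sap130 fell by 0.75 (adjusted p = 0.00376). Sap130 was listed by its symbol only and is not taken here as the nuclear ligand of Clec4e.

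Of 34 genes that share the lectin fold under other names, 28 were tested, 18 were called higher and 1 lower, with a median of 1.24, beside 25.8% and 26.2% of all genes. Of the 28, 4 (Cd69, Klrd1, Klrg1 and Olr1) reached 1 CPM in no 12-week library, and all 4 are among the 18. The smallest p were those of Cd72, a coreceptor of B cells and macrophages (3.51, SE 0.16, adjusted p = 2.03e-07), Mgl2, the early activation marker Cd69 (5.27) and the dendritic cell lectin Cd209a (2.91). The 1 called lower was Ly75, an endocytic receptor of dendritic cells (-0.65, adjusted p = 0.00784), and it was not called with the offset (-0.21).

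**Figure D5:**
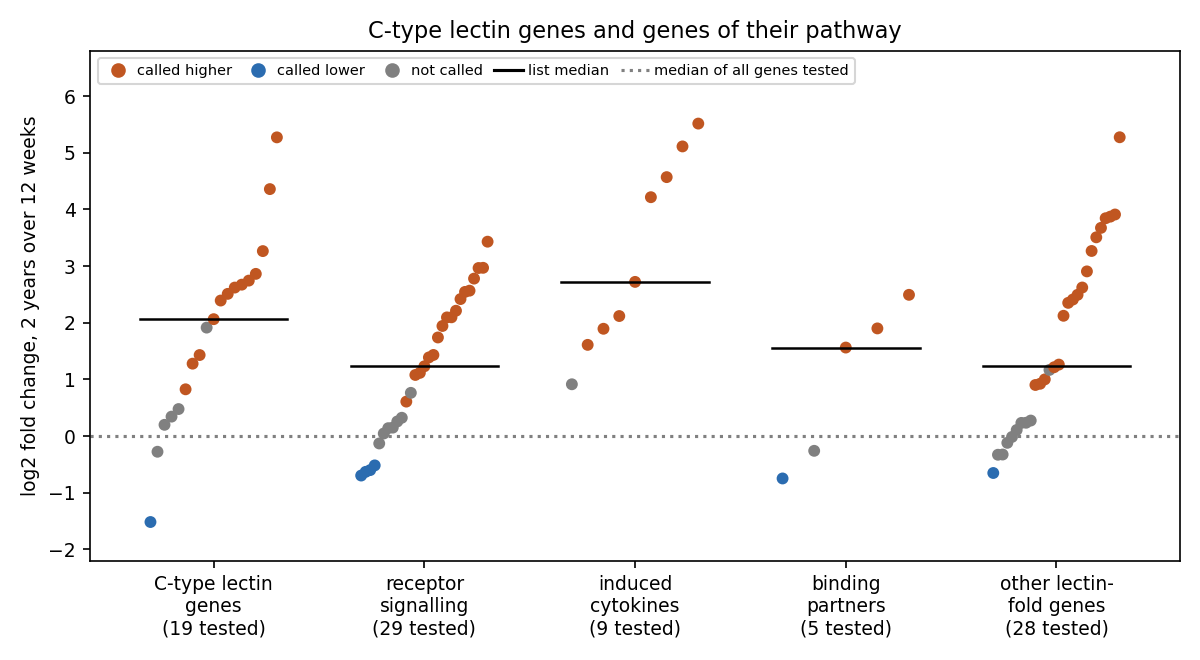
Log2 fold change of every tested gene in 5 lists, sorted within each list and coloured by call, with a bar at each list median and a dotted line at the median of all genes tested. List medians are 2.06 for the C-type lectin genes, 1.23 for receptor signalling, 2.72 for induced cytokines, 1.56 for binding partners and 1.24 for other genes of the lectin fold.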

How the data were processed

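Whole-tissue RNA of 8 aortas was sequenced on an Illumina NovaSeq instrument, per the labels' protocols. Each deposited file lists unnormalised read counts by gene symbol, per the file headers. GRCm39 is the build named in the submitters' processing notes. Aligner, counter, annotation, strand setting and treatment of multiply matching reads are not given in the sources used. The labels do not say how the mice relate, so p-values measure the spread between these libraries.

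Age groups were taken from the titles. Genes passing filterByExpr were scaled by TMM and compared by the robust quasi-likelihood test of edgeR, with age as the only term. Benjamini-Hochberg adjustment covered the 13978 genes in the fit, at a threshold of 0.05. CPM use TMM-scaled library sizes. Log2 fold changes are 2 years over 12 weeks, and standard errors are the fold change over the root of F. Transcript length, GC share and shared 50-base words came from the longest coding transcripts of GENCODE M21 (GRCm38), with a length for 98.5% of genes tested. The offset removes a per-library trend (natural splines with 4 degrees of freedom each for length and GC). Length-scaled levels are CPM per kilobase. Ratios to marker sums had no test. Alternatives were other scaling, DESeq2, limma voom, other filters, each library left out, both replicates 3 left out, the replicate block and the offset. Leaving out 2 years replicates 1 and 3 together was added after seeing the data. Software was edgeR 4.0.16, DESeq2 1.42.0 and limma 3.58.1 under R 4.3.3. The fit was tested on simulated data.

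The members and lists were chosen with earlier results of these data known. All detected members are named; of each other list, up to 4 called genes with the smallest p are named, and genes beyond these (Fcer1g, Tyrobp, Syk, Card9, Bcl10, Malt1, Prkcd, Src, Mmrn2, Ly75, Xcr1, Il6, Il12b, Il23a, Tnf, Cxcl2, Ccl3, Klrd1, Klrg1, Olr1 and single markers) were chosen after their values were seen, as were the promoter words and the printed promoters. A further gene of the signalling list is not reported here by name.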

Additional observations from a re-analysis of the deposited data

Results flagged for a closer look

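Clec4a3 in 12 weeks replicate 3 stood apart from the other 3 young libraries, at 4.25 CPM against 5.81 to 5.96 CPM. Its gap to the nearest value was 0.914 of the range of the group. Chance alone would mark about 1 in 20 groups, and 40 groups (20 members at each age) were looked at. The same library was the lowest young one for 9 of the 13 members called higher, and it held the most heart muscle marker RNA.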

How the results depend on the processing

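All 13 calls of higher and the call of Clec2d as lower kept their direction in the 18 alternatives, and 13 of these 14 calls were made in every one; Clec2i was not called with the offset combined with the replicate block (1.18, adjusted p = 0.0582). Between 12 and 15 members were called higher. There were 2 called lower with no low-count filter (with Clec2e) and 1 to 2 with single libraries left out (2 without 2 years replicate 4, with Clec16a). Of members not called, Clec1a ranged from -0.063 (without 12 weeks replicate 1) to 0.32 with single libraries left out, and Clec16a turned to 0.17 with the offset and also with the offset and the replicate block. Clec1b was called with DESeq2 (1.94), with the replicate block (1.71) and without 12 weeks replicate 2, 2 years replicate 1 or 2 years replicate 4 (2.61, 2.20 and 2.25). The offset with the replicate block left 2 signalling genes called lower in place of 4; for the other genes of the lectin fold 0 were called lower with the offset, with or without the block, and 1 to 2 with single libraries left out. The cause was not tested. Replicate numbers do not pair the mice: deviations of same-numbered libraries correlated at -0.31, -0.12, 0.05 and 0.03, and the replicate block gave 14 members called higher. Detection at 1 CPM in 4 libraries left 18 members. With 4 libraries a group and 9 to 46 counts at 12 weeks for Clec4e, Clec4d and Clec4b1, the size of their rise is known less precisely than its direction.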
